A study of Mus musculus with 6 samples.

Results

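Autophagy delivers cytoplasmic material to the lysosome, and 10 genes of that route were read out of the 770 genes of an immune expression panel. They were taken by symbol from a fixed list (Atg5, Atg7, Atg10, Atg12, Atg16l1, Lamp1, Lamp2, Ctsh, Ctsl and Tfeb), and all 10 were in the table. The RNA was taken from archived, formalin-fixed mouse tumours, which were oral squamous cell carcinomas raised with 4NQO, a carcinogen that forms DNA adducts. There were 3 libraries from mice treated with agonistic anti-CD40, an antibody that activates a receptor of antigen-presenting cells, and 3 libraries from mice that received vehicle. All 6 tumours thus share the carcinogen. The strain entry of the labels names only the carcinogen model, and genetic background, age, antibody clone, dose and time of sampling are not stated there. Nor do the labels tie each sample to an animal of its own, so p-values here cover sample-to-sample spread of a kind that may be technical.

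The members act in sequence. ATG7 and ATG10 are the E1-like and E2-like enzymes that join the ubiquitin-like protein ATG12 to ATG5, and ATG16L1 carries that conjugate to the forming autophagosome membrane, where it drives lipidation of the LC3 family. LAMP1 and LAMP2 are the abundant glycoproteins of the lysosomal membrane, and LAMP2 is needed for autophagosomes and phagosomes to mature. Cathepsins L and H are cysteine proteases of the lysosome, the first mainly an endopeptidase and the second an aminopeptidase. TFEB is a basic helix-loop-helix transcription factor that moves to the nucleus when mTORC1 is inactive and switches on lysosomal and autophagy genes. In macrophages, CD40 ligation is known to direct autophagic killing of an intracellular parasite, Toxoplasma gondii.

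TFEB binds a palindromic element whose core is CACGTG, and promoters of the members were searched for it. Those of Lamp1 and Ctsl are shown because their groups were the most separated below, and that of Lamp2 as the partner of Lamp1. The choice of promoters to show thus followed the expression values. RefSeq promoter windows of build GRCm38.p6, reaching from 250 bases before an annotated start to 50 after it, were at hand for 7 of the 10 genes, all but Atg12, Atg16l1 and Ctsh. Capitals mark each CACGTG, a sequence that reads the same on both strands, so that 1 search covered both, and no matches overlapped.
Lamp1 promoter, chr8:13158911-13159210, plus strand, 4 matches: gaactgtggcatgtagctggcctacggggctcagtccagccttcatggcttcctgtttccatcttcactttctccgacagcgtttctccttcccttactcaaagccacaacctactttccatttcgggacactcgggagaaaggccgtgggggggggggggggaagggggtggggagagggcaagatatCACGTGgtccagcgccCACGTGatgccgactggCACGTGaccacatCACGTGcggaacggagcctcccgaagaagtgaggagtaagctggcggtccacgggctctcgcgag
Ctsl promoter, chr13:64370471-64370770, minus strand, 1 match: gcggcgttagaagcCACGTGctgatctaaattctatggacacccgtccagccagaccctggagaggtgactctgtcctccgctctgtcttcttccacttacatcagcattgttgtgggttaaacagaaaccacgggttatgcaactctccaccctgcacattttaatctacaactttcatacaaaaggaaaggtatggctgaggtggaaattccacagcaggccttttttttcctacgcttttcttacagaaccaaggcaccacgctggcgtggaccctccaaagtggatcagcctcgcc
Lamp2 promoter, chrX:38456411-38456710, minus strand, no match: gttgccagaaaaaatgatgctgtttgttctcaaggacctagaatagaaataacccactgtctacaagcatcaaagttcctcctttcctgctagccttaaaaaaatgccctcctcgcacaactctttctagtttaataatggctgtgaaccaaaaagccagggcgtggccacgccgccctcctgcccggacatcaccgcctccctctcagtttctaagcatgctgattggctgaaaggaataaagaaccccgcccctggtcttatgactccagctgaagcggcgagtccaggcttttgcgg
The Lamp1 window held 4 matches, beginning 61, 45, 28 and 15 bases upstream of the annotated start. Of 32851 promoter windows of the same length, 2349 (7.15%) held at least 1 match and only 8 (0.0244%) held 4 or more. Among 566 panel genes with a window, 54 (9.54%) had a match, and Lamp1 was the 1 gene with 4 or more. In all 4 members had a match, since Atg5 had 1 beginning 14 bases, Atg7 1 beginning 132 bases and Ctsl 1 beginning 236 bases upstream. Atg10, Lamp2 and the 3 windows of Tfeb itself had none of these letters. A match is a description of the sequence and was not set against any binding data. Of the 4 members with a match, Lamp1 and Ctsl differed by 0.31 and 0.36 (anti-CD40 minus vehicle, log2), and Atg5 and Atg7 by -0.014 and -0.10. A relation of the matches to these differences was not tested.

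Values are log2 normalized counts as deposited, and a difference is anti-CD40 minus vehicle on that scale. Whole counts recovered from these values summed to 333400 to 578598 per library over the 770 genes. A gene was taken as above background where its count passed a limit set 2 SD above the mean of the 8 negative controls, and every member was above it in all 6 libraries, with counts from 132 for Atg10 to 9354 for Lamp1. Counting error alone was largest for Atg10, with an SD of at most 0.13 log2, and smallest for Lamp1, at most 0.021 log2. Each gene is read by its own probe, so levels are compared between libraries and not between genes. As a check of the tissue label, the epithelial genes Epcam, Cdh1, Egfr and Itga6 were above background in all 6 libraries. In these bulk samples, fewer cells of a type and less RNA per cell cannot be told apart.

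None of the 10 genes passed the test. With limma on all 770 genes and Benjamini-Hochberg adjustment, 0 of 770 genes (0%) had an adjusted p under 0.05, and the members' adjusted p-values lay between 0.974 and 0.994. At an unadjusted p under 0.05, limma counted 25 of 770 genes (3.25%) and 0 of the 10 members. Limma-voom on the recovered counts called 0 genes at an adjusted p of 0.05 and counted 31 genes, no member among them, at an unadjusted p under 0.05. Lamp1 and Ctsl had the largest mean differences, 0.31 and 0.36, and were the only 2 members whose groups did not overlap, both with every anti-CD40 library above every vehicle library. Over all genes 52 of 770 (6.75%) did not overlap in that direction and 27 of 770 (3.51%) in the other. The other 8 members differed by between -0.10 and 0.21. In the mean 7 members were higher and 3 lower, beside 54.5% and 45.5% of all genes, and these counts changed with the scaling, to 5 and 5 after quantile normalization and 9 and 1 after centring on housekeeping genes. The median difference was 0.068 for the members and 0.038 for all genes.

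**Figure D1:**
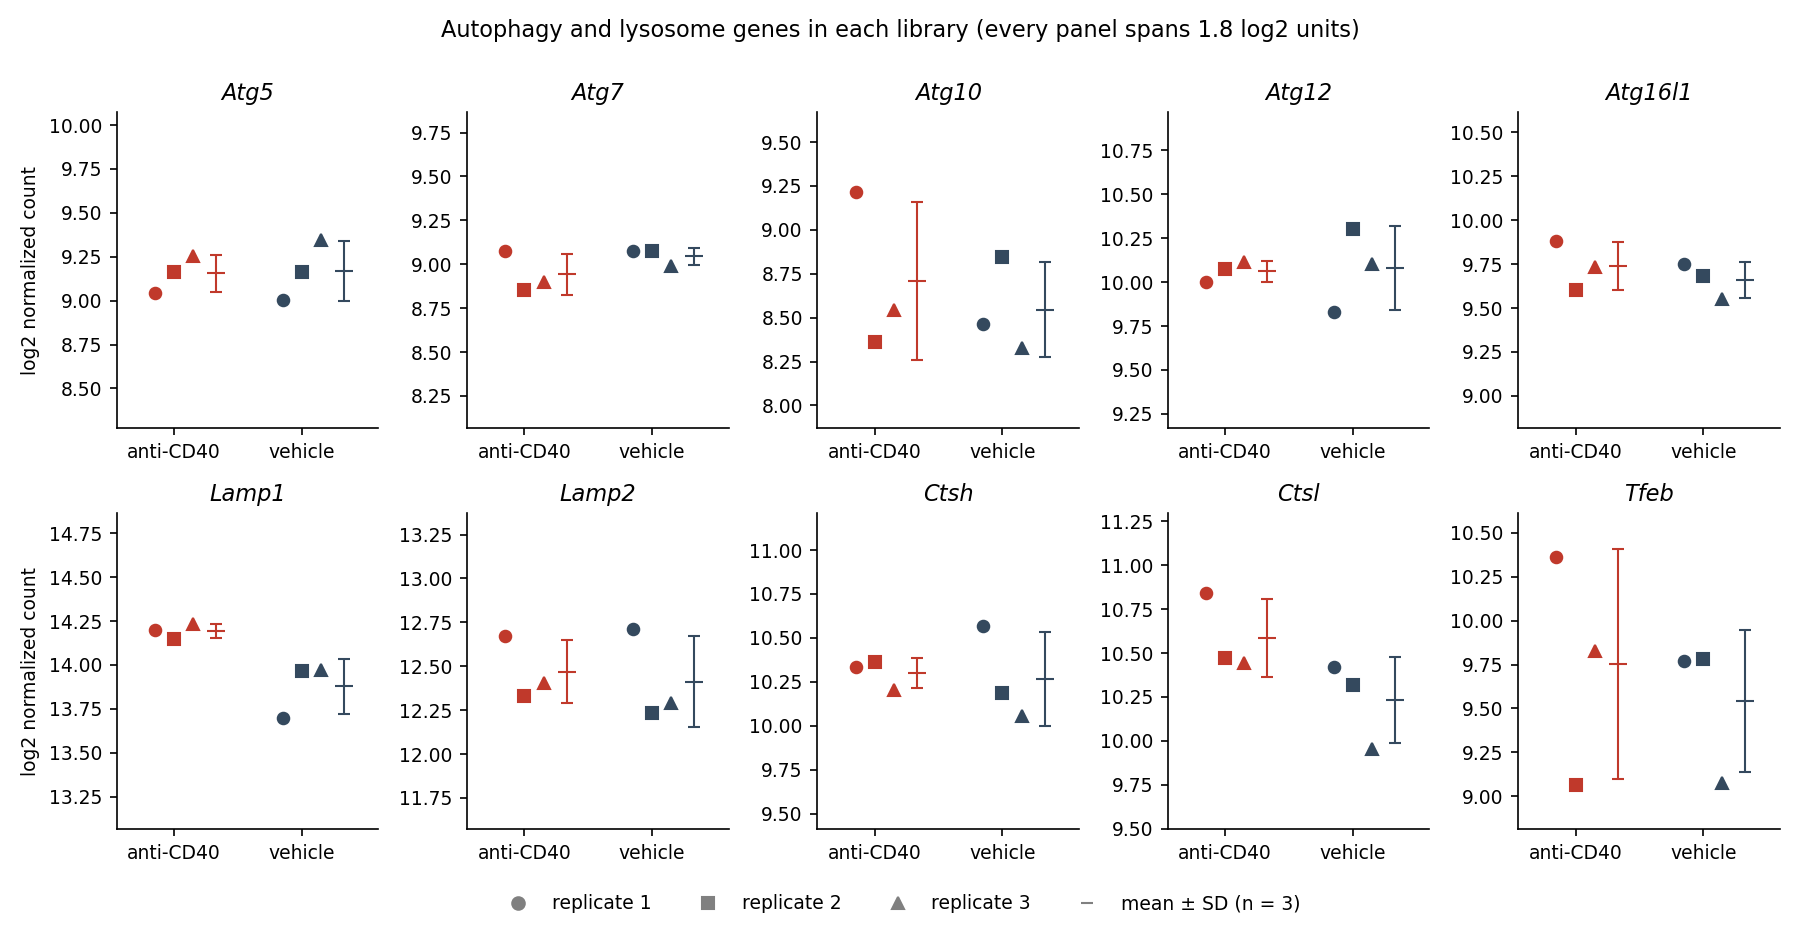
Log2 normalized counts of the 10 genes (y axis) in the 3 anti-CD40 and 3 vehicle libraries (x axis). Symbols mark replicates, which were not treated as paired, and bars give mean ± SD. The groups do not overlap for Lamp1 and Ctsl, though the Ctsl gap is smaller than its counting SD. Tfeb and Atg10 spread over 1.30 and 0.89 log2 units across the 6 libraries.

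Lamp1, whose product lines the lysosome and also appears on the surface of cytotoxic lymphocytes when they degranulate, was 14.20, 14.15 and 14.23 in anti-CD40 libraries 1, 2 and 3, against 13.70, 13.96 and 13.97 in vehicle libraries 1, 2 and 3. The anti-CD40 libraries lay within 0.1 of each other, and vehicle 1 was the lowest library. The means were 14.19 ± 0.04 and 13.88 ± 0.16 (SD, n = 3 each), a difference of 0.31 (SE 0.21) or 1.24-fold, with a 95% confidence interval from -0.17 to 0.80. Limma gave an unadjusted p of 0.172 and an adjusted p of 0.974. The gap of 0.18 between the nearest libraries of the groups exceeded counting error, but after quantile normalization the groups overlapped by 0.19, and by 0.21 when counts were scaled to the library total, while the difference stayed at 0.29 after quantile normalization.

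Lamp2 encodes the partner protein, 1 splice form of which is the receptor of chaperone-mediated autophagy. It was 12.67, 12.33 and 12.40 in anti-CD40 libraries 1, 2 and 3, against 12.71, 12.23 and 12.29 in vehicle libraries 1, 2 and 3. Both groups held 1 high library, and the groups overlapped. The means of 12.47 ± 0.18 in anti-CD40 and 12.41 ± 0.26 in vehicle libraries differed by 0.056 (SE 0.24), less than the spread within either group.

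The Lamp2 value minus the Lamp1 value of the same library, which a library factor cannot move, was -1.53, -1.82 and -1.83 in anti-CD40 libraries and -0.99, -1.73 and -1.68 in vehicle libraries. Vehicle 1 stood apart, with the highest Lamp2 and the lowest Lamp1 of the 6 libraries. The group difference was -0.26, and -0.018 without vehicle 1. An exact two-sided permutation test gave p = 0.5 (0.667 after adjustment over the 4 pairs of genes tested), where 3 against 3 libraries cannot give a p under 0.1.

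Ctsl encodes cathepsin L, which in some epithelial cells of the thymus also cuts the invariant chain of MHC class II. It was 10.84, 10.47 and 10.44 in anti-CD40 libraries 1, 2 and 3, against 10.42, 10.32 and 9.95 in vehicle libraries 1, 2 and 3. All 3 anti-CD40 values lay above the vehicle values, but anti-CD40 3 exceeded vehicle 1 by only 0.025, less than the counting SD of up to 0.073 for this gene. The means were 10.59 ± 0.22 and 10.23 ± 0.24 (SD, n = 3 each), a difference of 0.36 (SE 0.24) or 1.28-fold, with a 95% confidence interval from -0.21 to 0.92 and a limma adjusted p of 0.974. The difference was 0.22 without vehicle 3 and 0.23 without anti-CD40 1.

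Macrophages are rich in lysosomal proteases. Of 12 measured macrophage markers 10 had higher means in anti-CD40 libraries, none was called, none was at 0 in any library, and their summed level was 14.15 to 14.21 in anti-CD40 and 13.34 to 14.40 in vehicle libraries. By library the sum was 14.19, 14.15 and 14.21 in anti-CD40 1, 2 and 3, against 14.11, 14.40 and 13.34 in vehicle 1, 2 and 3. Lyz2 had the highest level of these markers and weighed most in the sum. It was 13.48, 13.33 and 13.52 in anti-CD40 libraries, against 13.30, 13.79 and 12.48 in vehicle libraries. Among the 12 markers, Cd163 (0.67), Marco (0.55), Msr1 (0.42), Itgam (0.42), Cd14 (0.39) and Mrc1 (0.38) differed more than Ctsl. Marco was above background in 1 of 6 libraries and Msr1 in 5. C1qb (0.30), Lyz2 (0.26), Csf1r (0.25) and C1qa (0.032) differed less than Ctsl, and Cd68 (-0.13) and Fcgr1 (-0.20) the other way. The median difference of these markers was 0.34. Likeness was taken as the root mean square difference of mean-centred log2 values over the 6 libraries, among 522 other genes above background throughout. By this distance the 3 genes most like Ctsl were the scavenger receptor gene Colec12 (0.082), the macrophage mannose receptor gene Mrc1 (0.085) and Bcl2l1 (0.10). Mrc1 was 9.81, 9.50 and 9.65 in anti-CD40 libraries, against 9.49, 9.40 and 8.91 in vehicle libraries. Its groups did not overlap either, but the gap was only 0.0088, less than its counting SD of up to 0.10. The part of macrophage content in the Ctsl difference was not tested.

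Ctsh, the gene of cathepsin H, was 10.33, 10.36 and 10.20 in anti-CD40 libraries 1, 2 and 3, against 10.57, 10.18 and 10.05 in vehicle libraries 1, 2 and 3. The vehicle values ran on both sides of the anti-CD40 values. The means of 10.30 ± 0.09 in anti-CD40 and 10.27 ± 0.27 in vehicle libraries differed by 0.030 (SE 0.23). Within a library, Ctsl minus Ctsh was 0.51, 0.11 and 0.24 in anti-CD40 and -0.15, 0.14 and -0.099 in vehicle libraries, a group difference of 0.33 (exact two-sided permutation p = 0.2, adjusted 0.667) with overlapping groups. It was 0.22 without anti-CD40 1, and after quantile normalization 0.31 with p = 0.1, the smallest that the exact test can give.

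Tfeb, the transcription factor of the set, varied more than any other member. It was 10.36, 9.06 and 9.83 in anti-CD40 libraries 1, 2 and 3, against 9.77, 9.78 and 9.07 in vehicle libraries 1, 2 and 3. Each group held 1 library near 9.1, and the highest and lowest values of all 6 both belonged to anti-CD40 libraries. The difference of 0.21 (SE 0.38) had a 95% interval of -0.68 to 1.10. It was -0.098 without anti-CD40 1, 0.55 without anti-CD40 2 and -0.025 without vehicle 3. The library lowest in Tfeb, anti-CD40 2, had 14.15 for Lamp1 and 10.47 for Ctsl, and the highest, anti-CD40 1, had 14.20 and 10.84. A relation of Tfeb level to these 2 genes was not tested.

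The enzymes that start ATG12 conjugation differed little in the mean. Atg7 was 9.08, 8.86 and 8.90 in anti-CD40 libraries 1, 2 and 3, against 9.07, 9.08 and 8.99 in vehicle libraries 1, 2 and 3, and anti-CD40 1 was the single library of its group at the vehicle level. With a range of 0.22 over the 6 libraries it was the steadiest member, and its difference of -0.10 (SE 0.20) had a 95% confidence interval from -0.58 to 0.37. Atg10 was 9.22, 8.36 and 8.55 in anti-CD40 libraries, against 8.46, 8.85 and 8.32 in vehicle libraries. Anti-CD40 1 was its highest library by far, and the difference of 0.16 (SE 0.30) was -0.091 without it. The values of Atg7 minus Atg10 were -0.14, 0.49 and 0.35 in anti-CD40 and 0.61, 0.23 and 0.66 in vehicle libraries. That difference of -0.26 had an exact permutation p = 0.4 (adjusted 0.667) and was -0.077 without anti-CD40 1.

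Atg12 and Atg5, which encode the partners of the conjugate, kept nearly the same mean in both groups. Atg5 was 9.05, 9.16 and 9.26 in anti-CD40 libraries 1, 2 and 3, against 9.002, 9.16 and 9.35 in vehicle libraries 1, 2 and 3, a difference of -0.014 (95% confidence interval from -0.52 to 0.49). The anti-CD40 values lay inside the vehicle range. Atg12 was 9.998, 10.07 and 10.12 in anti-CD40 libraries, against 9.83, 10.31 and 10.10 in vehicle libraries, and its difference was -0.016 (95% confidence interval from -0.54 to 0.50). Its anti-CD40 values likewise lay inside the vehicle range. Atg12 minus Atg5 was 0.95, 0.91 and 0.86 in anti-CD40 and 0.83, 1.14 and 0.76 in vehicle libraries, a group difference of -0.0020 (exact permutation p = 1). Atg16l1 was 9.88, 9.60 and 9.74 in anti-CD40 libraries, against 9.75, 9.68 and 9.55 in vehicle libraries, a difference of 0.079 (SE 0.21) with overlapping groups.

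**Figure D2:**
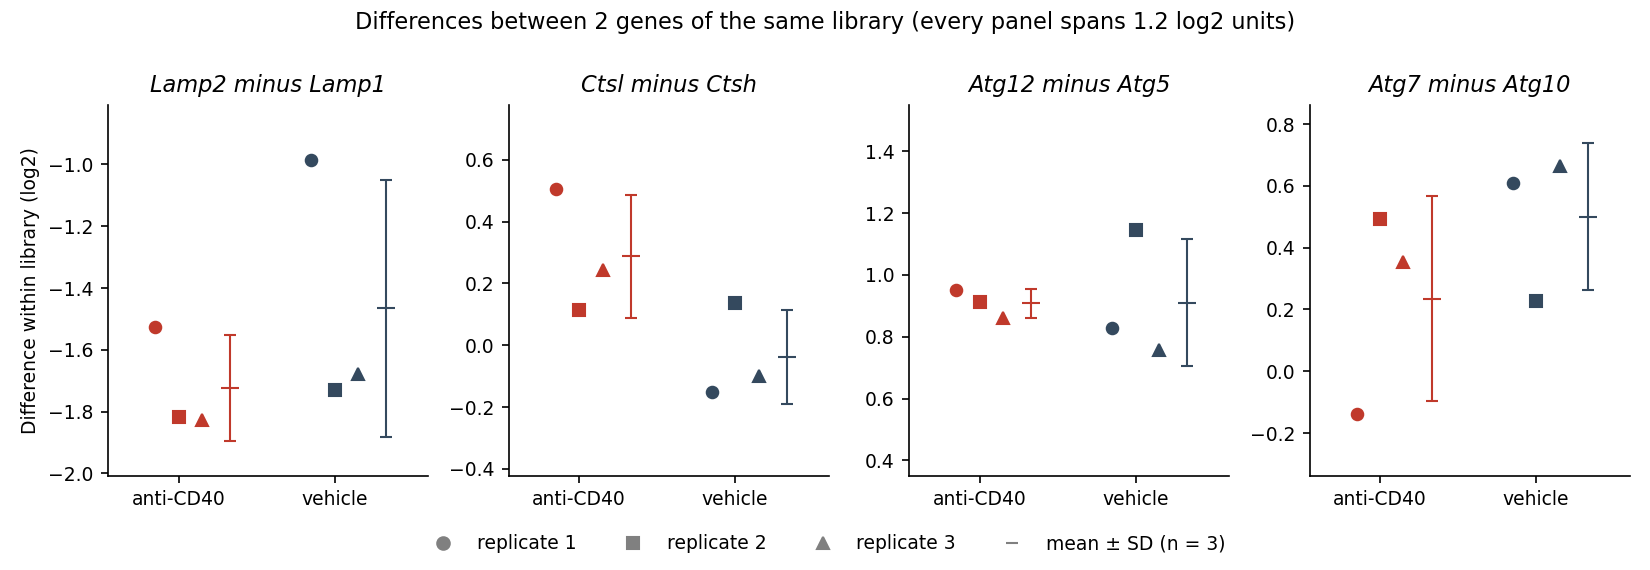
Log2 difference between 2 genes of the same library (y axis) for 4 pairs, in 3 anti-CD40 and 3 vehicle libraries (x axis), with mean ± SD as bars. Groups overlap in all 4 panels, and for Lamp2 minus Lamp1 the vehicle 1 library lies at -0.99, above the other 5.

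The confidence intervals show what these libraries could not resolve. For the 5 conjugation genes they reached down to between -0.58 and -0.41 and up to between 0.37 and 0.86, so differences of that size between the groups remain possible. With 1 library left out at a time, the sign was kept for Atg7, Atg16l1, Lamp1 and Ctsl and turned at least once for the other 6. The Lamp1 difference then lay between 0.22 and 0.36 and the Ctsl difference between 0.22 and 0.45.

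**Figure D3:**
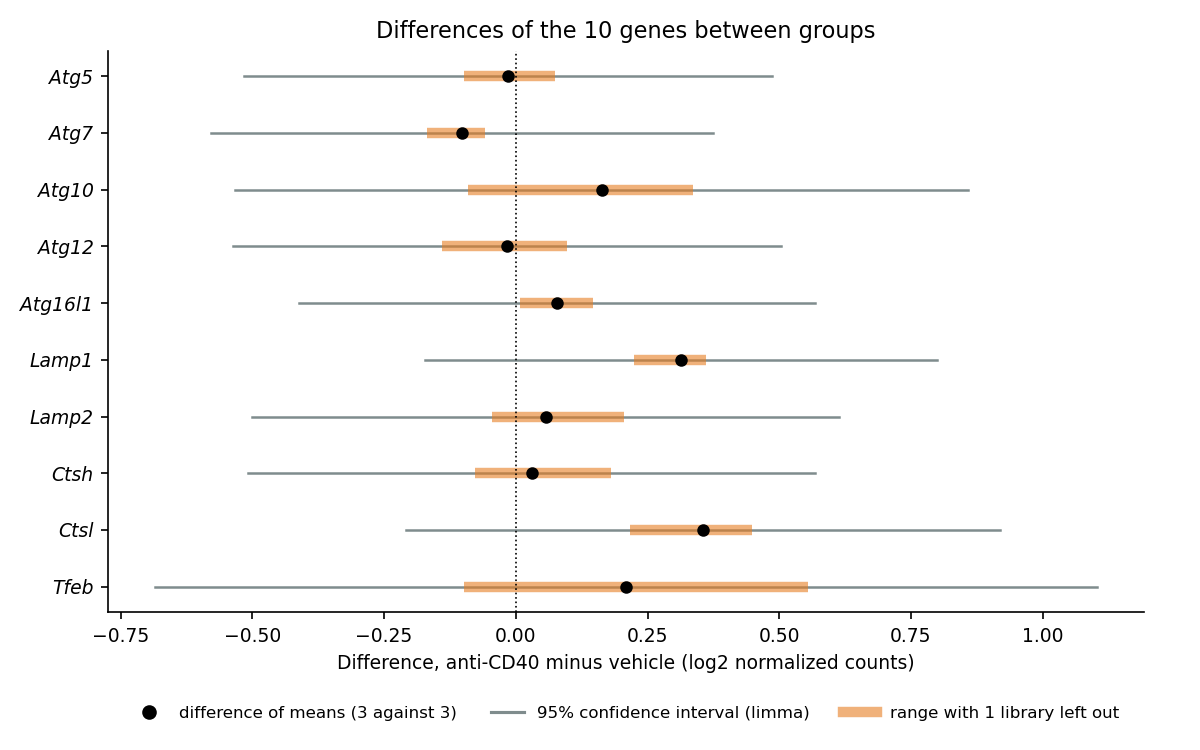
Difference between anti-CD40 and vehicle means for each gene (x axis, log2; points), with the 95% confidence interval from limma (thin lines) and the range of the difference with 1 library left out (thick bars). Every interval includes 0, and the leave-one-out range stays above 0 for Atg16l1, Lamp1 and Ctsl and below 0 for Atg7.

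Most members were steady within groups. The pooled SD within groups had a median of 0.19 log2 over the members, 0.33 over the 523 genes above background in all libraries and 0.39 over all 770 genes. Of the 10 members 8 lay below the median SD of those 523 genes, and Tfeb (0.54) and Atg10 (0.37) lay above it. Only 10 of the 523 genes had a smaller SD than Atg7 (0.090), 24 than Lamp1 (0.11) and 33 than Atg16l1 (0.12). The SD of Atg7 lay below its own counting SD of up to 0.11, so its order among the steadiest genes is within counting error. The members also had a higher mean level, with a median of 9.89 against 9.05 for the 523 genes, and the part of level in their small spread was not tested.

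**Figure D4:**
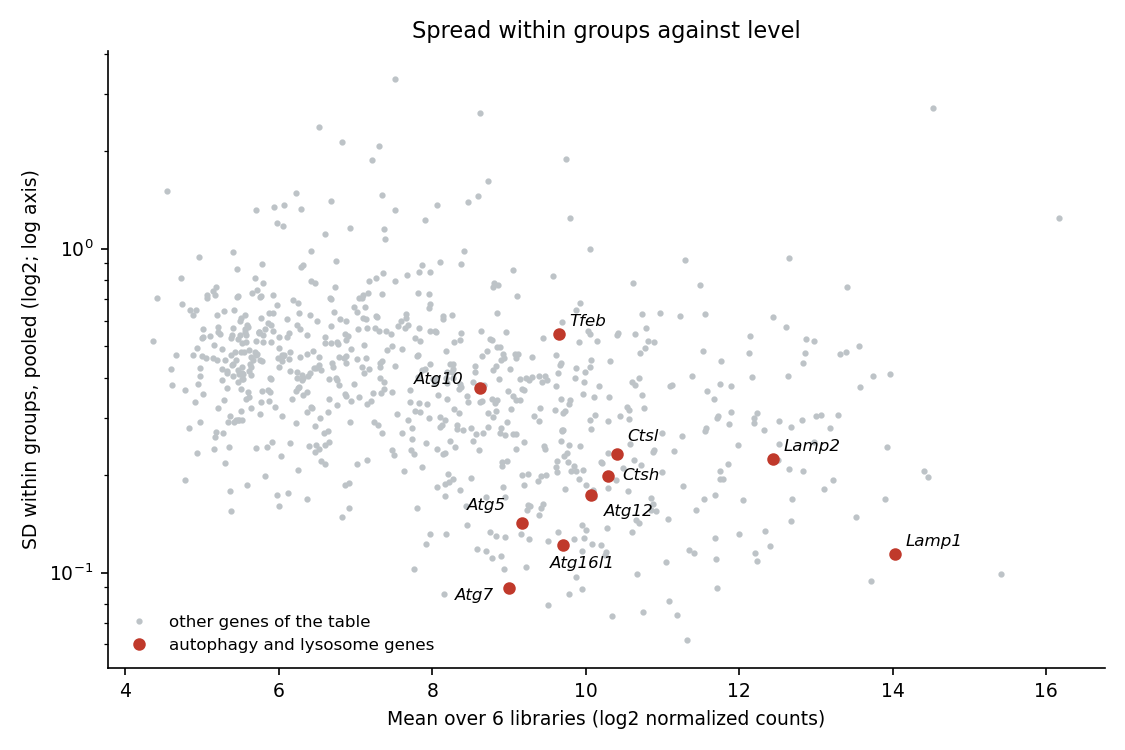
Pooled SD within groups (y axis, log2 units on a log axis) against mean log2 normalized count over the 6 libraries (x axis) for all 770 genes, 1 point per gene, with the 10 members labelled. Atg7, Lamp1 and Atg16l1 lie among the steadiest genes, and Tfeb lies highest of the members.

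The members did not share 1 profile across libraries. Anti-CD40 1 was the highest library for Atg7, Atg10, Atg16l1, Ctsl and Tfeb, vehicle 1 for Lamp2 and Ctsh, and vehicle 3 the lowest for Atg10, Atg16l1, Ctsh and Ctsl. Over the table, anti-CD40 1 was the highest library for 143 of 770 genes (18.6%) and vehicle 1 for 172 (22.3%). Vehicle 3 was the lowest library for 320 of 770 genes. By the same distance the genes most like Lamp1 included the TGF-beta receptor gene Tgfbr1 (0.089) and the ligand gene Tgfb3 (0.12). The nearest gene was the adaptor gene Bcl10 for Atg5 (0.071), the proteasome subunit gene Psma2 for Atg7 (0.048), Igf2r for Atg10 (0.045), the kinase gene Map2k1 for Atg12 (0.075) and the ubiquitin ligase gene Itch for Atg16l1 (0.061). Igf2r encodes the receptor that sorts newly made hydrolases to the lysosome. The nearest gene was Traf2 for Lamp2 (0.091) and Tyk2 for Ctsh (0.074). No member had another member as its nearest gene, and the closest pair of members was Atg7 with Atg16l1 (0.0995).

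Further genes of the route were read from lists. Of 26 other listed genes of the autophagy machinery, those of LC3 and p62 among them, 0 were measured under their listed symbols. Of 34 other lysosomal and protease genes 8 were measured, 2 with higher and 6 with lower means in anti-CD40 libraries, and limma called 0 at an adjusted p of 0.05 and 0 at an unadjusted p under 0.05. Their median difference was -0.18. Ctss, the gene of the cathepsin that trims the invariant chain in antigen-presenting cells, was 10.39, 10.88 and 10.51 in anti-CD40 libraries 1, 2 and 3, against 11.53, 10.60 and 10.34 in vehicle libraries 1, 2 and 3, and vehicle 1 stood above the other 5. Its difference of -0.23 was 0.12 without vehicle 1. Ctsw, a cathepsin gene of cytotoxic lymphocytes, was above background in 3 of 6 libraries and differed by -0.34, between -0.62 and -0.10 with 1 library left out. Ctsg, a serine protease gene of neutrophil granules, was above it in 2 of 6 and differed by 0.20, between -0.41 and 1.10 with 1 library left out. Lamp3, a gene of mature dendritic cells, was above background in none.

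The TFEB relative Tfe3, also a regulator of lysosomal genes, was 9.40, 9.76 and 9.71 in anti-CD40 libraries and 9.63, 9.35 and 9.80 in vehicle libraries, a difference of 0.030 (SE 0.23) with overlapping groups. Of 11 genes listed as TFEB family and regulators 3 were measured, all with higher means and none called. Of 14 genes that link autophagy to immune sensing 12 were measured, 8 with higher and 4 with lower means, a median difference of 0.080 and none called. In both lists 0 genes had an unadjusted p under 0.05 with limma. The groups did not overlap for the adaptor genes Mavs and Ripk2. Mavs was 10.25 ± 0.16 in anti-CD40 and 9.91 ± 0.06 in vehicle libraries. Ripk2 was 7.76 ± 0.04 in anti-CD40 and 8.08 ± 0.17 in vehicle libraries, and its gap of 0.12 was less than its counting SD of up to 0.16. Nod2, whose product recruits ATG16L1 to entering bacteria, was 8.18 ± 0.41 in anti-CD40 and 8.51 ± 0.15 in vehicle libraries, with overlapping groups.

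Markers of other cells were summed per library, as log2 of their added normalized counts. The epithelial sum (4 genes measured, 3 with lower means) was 13.33 to 13.87 in anti-CD40 and 13.67 to 14.26 in vehicle libraries, and the fibroblast sum (6 genes, all with higher means) was 14.82 to 15.36 in anti-CD40 and 14.32 to 15.16 in vehicle libraries. The neutrophil sum (8 genes, 7 with higher means) ran from 14.79 to 17.19 in anti-CD40 and from 14.81 to 17.16 in vehicle libraries. Nearly all of that sum was S100a8, the 1 gene with a lower mean (-0.095). S100a8 was 17.18 in anti-CD40 2, where the sum was 17.19, and 14.77 in anti-CD40 3, where it was 14.79. Dendritic cell sums (5 genes, all with lower means) were 7.99 to 8.62 in anti-CD40 and 8.29 to 8.86 in vehicle libraries, T cell sums (8 genes, all with lower means) 9.24 to 10.07 in anti-CD40 and 9.80 to 10.27 in vehicle libraries, and B cell sums (7 genes, 4 with higher means) 8.06 to 9.25 in anti-CD40 and 8.01 to 10.06 in vehicle libraries. No listed marker was at 0 in any library, but many were near background. Above background in all 6 libraries were 0 of 5 dendritic cell and 0 of 7 B cell markers. Of the T cell markers 4 of 8 were, and of the neutrophil markers 2 of 8. All 4 epithelial and all 6 fibroblast markers were. The direction of genes near background is thus uncertain. Limma called no listed marker at an adjusted p of 0.05, and 2 had an unadjusted p under 0.05. These were Flt3 of dendritic cells and Cd5 of T cells, both lower in anti-CD40 libraries, with Flt3 above background in 4 of 6 libraries. The part of these cells in the member values was not tested.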

How the data were processed

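The deposited table gives log2 normalized counts, in the authors' naming, for 770 genes, 6 positive and 8 negative controls in 6 libraries. In the sources used here, platform, software, build and normalization are not given. The deposited log2 values are those of a whole count times a library factor (1.72 to 3.28) plus an offset of 4.55. All 4704 came out whole within 0.05, with background not subtracted, so differences of low counts are understated. Chi-square per degree of freedom between replicates was 64.2 to 121, so none was a duplicate.

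Groups were compared with limma 3.58.1 in R 4.3.3 (lmFit and eBayes without trend, 4 residual and 3.37 prior degrees of freedom) on all 770 genes, two-sided, Benjamini-Hochberg threshold 0.05, with 3 libraries per group. The procedure was tested on simulated data. Gene pairs within libraries had exact permutation tests (scipy 1.17.1), and tables and plots used Python 3.11.15, pandas 2.3.3 and matplotlib 3.10.9. Alternatives covered scaling, offset, background, filter, test, replicate block and each library left out. Members and lists were chosen with earlier results of these data known. All 10 members are named, beside listed genes whose groups did not overlap or with an unadjusted p under 0.05, and all measured cathepsin, LAMP and TFEB family genes. Values of 2 genes that this rule names are not reported here. Nod2, Igf2r, Mrc1 and Bcl2l1 were described after their values were seen. Symbols matched RefSeq (GRCm38.p6) for all 10 members.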

Additional observations from a re-analysis of the deposited data

How the results depend on the processing

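No alternative called any member. A filter on low genes, eBayes with trend and the replicate block leave a member difference as it was by construction, and of 50 differences under the 5 settings that can move one, 5 changed sign. Atg5 was 0.0065 and Atg12 0.0046 after housekeeping centring, Atg16l1 -0.0030 and Ctsh -0.068 after quantile normalization, and Ctsh -0.019 with limma-voom. With 1 library left out, 13 of 60 changed sign, over ranges of -0.098 to 0.074 for Atg5, -0.091 to 0.34 for Atg10, -0.14 to 0.097 for Atg12, -0.045 to 0.21 for Lamp2, -0.078 to 0.18 for Ctsh and -0.098 to 0.55 for Tfeb. The cause was not tested. Subtracting the negative control mean gave 1 called gene over the table, against 0 otherwise. It was Masp2, whose low values reached the floor of 1, and was picked out after its value was seen. Atg12 minus Atg5 was 0.0019 under that setting and -0.079 to 0.12 with 1 library left out. The gap of Lamp1 between groups, added after seeing the data, became -0.19 after quantile normalization and -0.21 with counts scaled to the library total. That of Ctsl stayed between 0.021 and 0.065, throughout below its counting SD of up to 0.073. With the replicate block the count of called genes was 0. Same-numbered samples deviated together with correlations of -0.43, 0.069 and 0.28, and 1 of 3 anti-CD40 samples correlated best with its own number. The sample titles state no pairing and these values cannot exclude it, so the main test did not pair the samples. Depth limits Atg7, whose SD of 0.090 within groups lay below its largest counting SD of 0.11.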

Other observations

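Some genes beside the members were highest in vehicle 1, as were 172 of 770 genes (22.3%) over the table. Cd74, the invariant chain gene, was 13.61, 13.88 and 14.005 in anti-CD40 libraries 1, 2 and 3, against 14.68, 13.99 and 13.60 in vehicle libraries 1, 2 and 3, and Ctss, Ctsh and Lamp2 were likewise highest in vehicle 1. The immunity-related GTPase gene Irgm2 was 8.11, 8.45 and 9.44 in anti-CD40 libraries, against 9.72, 8.06 and 8.95 in vehicle libraries, also highest in vehicle 1. Gusb, a lysosomal hydrolase gene also listed here as a housekeeping gene, was 8.87 ± 0.18 in anti-CD40 and 8.93 ± 0.35 in vehicle libraries, and the tetraspanin gene Cd63 was 13.07 ± 0.21 in anti-CD40 and 12.88 ± 0.29 in vehicle libraries. These genes were picked after their values were seen, and limma called none of them.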
